A study of Homo sapiens with 4 samples.

Results

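Genes for the first steps of the secretory pathway were described here by STAT5A occupancy, measured by chromatin immunoprecipitation and sequencing (ChIP-seq). They were chosen by name alone. Every peak credited to a gene whose symbol starts with SEC, TMED or SRP followed by a digit, or is SSR1 to SSR4, SPCS1 to SPCS3 or that of a COPI subunit, was taken. The rule took 65 of 31227 peaks in the knockdown list and 107 of 55269 in the wild-type list, credited to 54 of the 18744 genes that either list names. The symbols match 61 protein-coding genes in RefSeq (the Y chromosome left out), of which 52 have a credited peak, and 2 antisense RNAs, SEC24B-AS1 and SRP14-AS1. One of the 61, TMED7-TICAM2, is a readthrough gene that shares the start of TMED7, and the other 60 fall into 9 groups by role.

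The cells were ARP1, an established human multiple myeloma line labelled as bone marrow. Wild-type cells were compared with cells in which YTHDF2, a reader of N6-methyladenosine on RNA, was knocked down, with 1 immunoprecipitated and 1 input library each. The labels do not say how the knockdown was made, how many clones were used, or whether the wild-type cells carried a control construct. A ChIP-seq peak does not measure RNA, so the knockdown could not be checked here. Of 6 plasma cell marker genes, both lists held a promoter peak for SDC1, IRF4, PRDM1, XBP1 and CD38, and TNFRSF17 had none. Among B cell markers, PAX5 had one in both and MS4A1 in neither. The share of all protein-coding genes occupied at a promoter in knockdown and wild type alike was 53.6%. Such a peak records occupancy only, so the marker peaks do not show cell identity.

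Each condition has 1 peak list, so nothing below has a replicate check and no p-value is given. Fold enrichment is the authors' value for each peak. Read depth is unknown and the wild-type list is longer, so values given for both conditions describe each list and measure no change. A promoter peak means a peak credited to the gene with its nearest edge within 1 kb of a transcript start by the authors' distance.

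As background, proteins bound for the endoplasmic reticulum (ER) are recognised by the signal recognition particle as they emerge from the ribosome and are threaded through the SEC61 channel, the translocon. Signal peptidase then removes the leading peptide. Vesicles with a COPII coat carry the cargo from the ER to the Golgi, vesicles with a COPI coat bring proteins back, and TMED proteins sort cargo in both. Plasma cells and myeloma cells depend on this route because they secrete antibody in bulk.

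Most of these genes had a STAT5A promoter peak. A promoter peak was credited to 43 of 61 in knockdown (70.5%, exact 95% interval 57.4 to 81.5%), beside 56.1% of all 19974 protein-coding genes. In wild type it was 47 of 61 (77.0%, 64.5 to 86.8%), beside 64.7%. All 43 genes of the knockdown list were among the 47 of the wild-type list. This made 70.5% of the members with a promoter peak in both lists, against a background of 53.6%. The 4 in wild type only compare with a background of 11% of genes, and the 0 in knockdown only with 2.42%. These numbers depend on the threshold: with folds of at least 5 required in both lists, 14 members had a promoter peak in knockdown and 28 in wild type only. Among the 57 members with a listed RefSeq start, 9 had a knockdown fold of 5 to 20 and 3 one of at least 20. Over all 15812 such genes it was 4270 and 823, together a larger share. At this cut the members therefore lay below the background in knockdown. The number in wild type only at this cut was not computed over all genes. With as many wild-type peaks as knockdown peaks, 2 members (COPB2 and SSR4) had one in knockdown only.

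The authors credited each peak to 1 gene, and many of these genes share their start region with a neighbour. When a start listed in the RefSeq table within 1 kb of a peak was also counted, whichever gene the peak was credited to, the numbers were 54 of 61 in knockdown (88.5%, 77.8 to 95.3%) and 56 in wild type (91.8%, 81.9 to 97.3%). The same count over all protein-coding genes gave 63.9% and 73.4%. Counted this way, 54 members had a peak in both lists, against 62.6% of all genes. SRP54 and SEC31B had one in wild type only, against 10.8%. The intervals cover counting error only. This way of counting was added after the data were seen. Counted by RefSeq starts alone, which 57 members have, it was 49 in knockdown and in both lists and 51 in wild type, beside 65.1%, 64% and 74.6% of the 15812 genes with such a start.

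**Figure D1:**
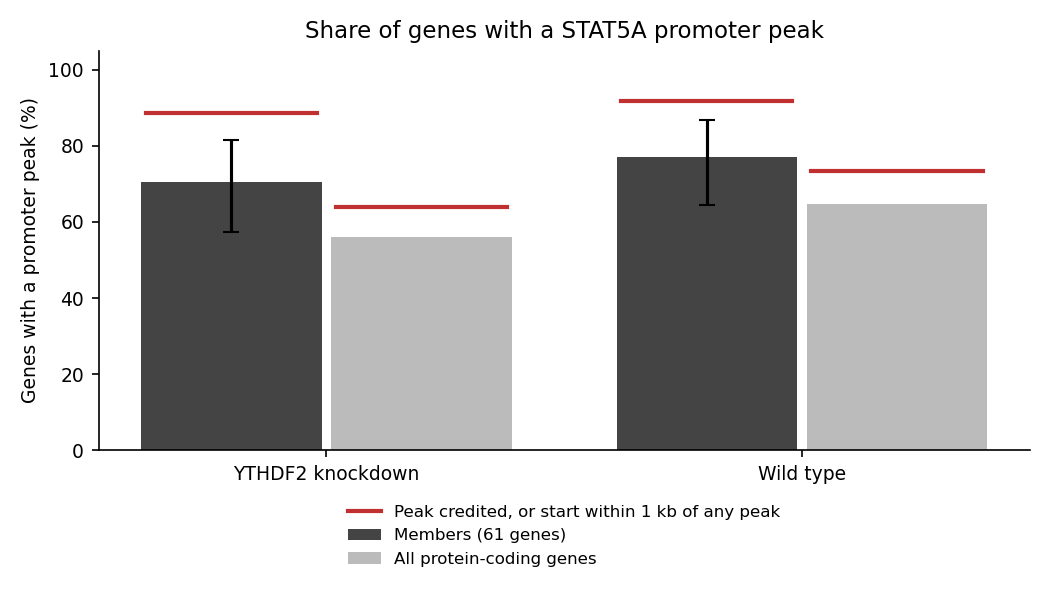
Bars give the percentage of the 61 secretory genes (dark, error bars are exact 95% intervals) and of all 19974 protein-coding genes (grey) with a credited STAT5A promoter peak, for 1 peak list per condition. Red lines add genes whose start lies within 1 kb of a peak credited to another gene, and in both lists the secretory genes lie above the background, at 88.5% against 63.9% in knockdown and 91.8% against 73.4% in wild type.

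Occupied did not mean strongly enriched. The median promoter fold of the 43 members was 4.51 in knockdown, below the 5.22 of all 11198 protein-coding genes with a promoter peak, and 12 of the 43 lay above the median of all genes. In wild type the median of the 47 members was 9.45 against 11.1 over 12915 genes, and 17 of the 47 lay above. A fold of at least 20 was reached by 3 members in knockdown (4.93% of all genes reached it) and by 7 in wild type (background 10.7%), both close to the background share of 61 genes. Their promoter peaks were also somewhat narrower, with a median knockdown width of 571 bp beside 622 bp for all promoter peaks, and a median wild-type width of 629.5 bp beside 763 bp. The peaks sat over the start itself. In knockdown 43 of 49 member promoter peaks (87.8%) spanned a transcript start, against 73.2% of all promoter peaks, and in wild type 55 of 60 (91.7%), against 73.6%. The summit lay upstream of that start in 23 of 49 knockdown peaks (background 40.9%) and in 20 of 60 wild-type peaks (background 39.6%).

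**Figure D2:**
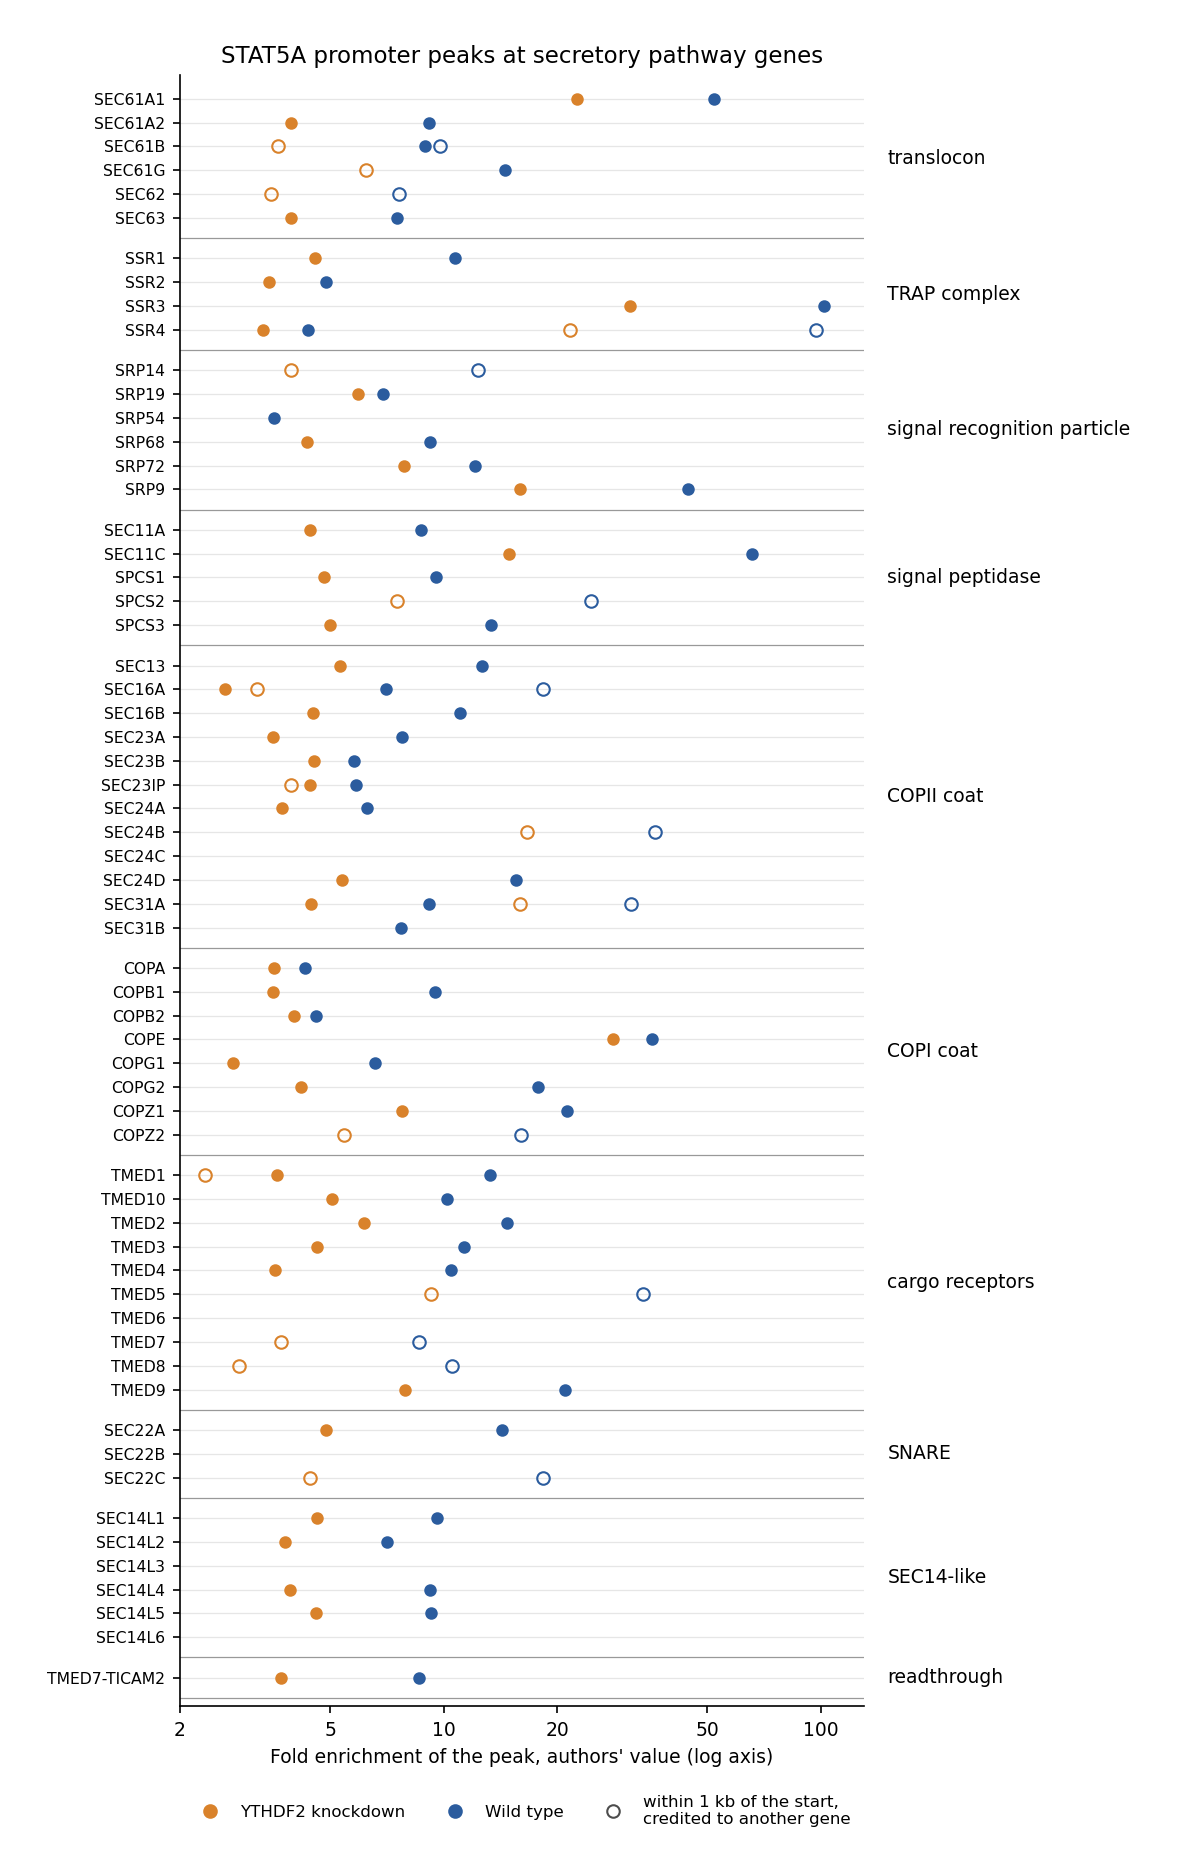
Fold enrichment (log axis) of the strongest promoter peak credited to each of the 61 genes, in the knockdown (orange) and wild-type (blue) lists, grouped by role; open circles are the strongest peak within 1 kb of a listed start that was credited to another gene. SSR3, SEC61A1, SEC11C, SRP9 and COPE stand apart on the right with wild-type folds from 35.6 to 102, SSR4 and SEC24B have such values only through a neighbour, and 5 genes have no point.

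The highest promoter peak of the set belonged to SSR3, a subunit of the translocon-associated protein (TRAP) complex, which sits beside the SEC61 channel and helps some proteins to enter it. Its fold was 31.2 in knockdown (chr3:156554872-156555490) and 102 in wild type (chr3:156554768-156555489). These values lie at percentiles 94.3 and 95.7 of the genes with a promoter peak in each list. The other TRAP subunits were far lower by their credited peaks. SSR1 had 4.56 and 10.7, SSR2 had 3.43 and 4.88, and SSR4 had 3.31 and 4.37.

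SSR4 is a case where credit matters. Its credited peaks lay at internal starts and did not overlap between the lists, with an authors' q-value of 0.0111 in knockdown. A start of SSR4 listed by RefSeq lies 74 bp from that of IDH3G on the opposite strand. The peak over both starts was credited to IDH3G, with a fold of 21.6 in knockdown (chrX:153793910-153795004) and 97.2 in wild type (chrX:153793702-153795254). By position, then, SSR3 and SSR4 both lay under wild-type peaks among the highest at any member.

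SEC11C, a catalytic subunit of signal peptidase, had the next highest credited wild-type fold, 65.4, with 14.9 in knockdown. SEC11A, the other catalytic subunit, had 8.72 in wild type and 4.41 in knockdown. The accessory subunits SPCS1 and SPCS3 had 9.52 and 13.3 in wild type and 4.82 and 5.002 in knockdown. SPCS2 had no credited peak in either list. Its start lies 175 bp from that of XRRA1, and the peak credited to XRRA1 covered it with a fold of 7.51 in knockdown and 24.5 in wild type. All 5 signal peptidase genes therefore had a peak at a start in both lists, by credit or by position.

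Within the translocon, SEC61A1, which encodes the channel-forming subunit, stood apart with a fold of 22.6 in knockdown (chr3:128051656-128052774) and 52.0 in wild type (chr3:128051878-128052794). Its paralogue SEC61A2 had 3.95 and 9.12. SEC63, which couples the channel to the chaperone BiP, had 3.94 and 7.53. SEC62, its partner, was credited with none, but its start lay within 1 kb of a peak credited to LOC100128164 (3.48 and 7.59). The small subunits SEC61B and SEC61G had a credited promoter peak in wild type only (8.93 and 14.6). At SEC61G the wild-type peak overlapped a knockdown peak of fold 6.24 credited to LOC100996654, so the same place was occupied in both lists. At SEC61B the wild-type peak (chr9:99222288-99222665) overlapped no knockdown peak, although the neighbouring start of ALG2, 340 bp away, had peaks of fold 3.64 in knockdown and 9.80 in wild type.

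For the signal recognition particle, SRP9, which with SRP14 forms the Alu domain that pauses translation, led with 15.9 in knockdown and 44.5 in wild type. SRP72 (7.84 and 12.1), SRP19 (5.92 and 6.89) and SRP68 (4.33 and 9.21) had peaks in both lists. SRP14 has a peak over its start credited to its antisense RNA SRP14-AS1, with folds of 3.94 and 12.3. SRP54, which encodes the GTPase that binds the signal peptide, had the weakest wild-type promoter peak of the set, 3.56 with a q-value of 0.000138, and no knockdown peak within 1 kb of its start.

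Sequences of some of the promoters with strong peaks are shown next, because several share short elements that a peak list alone does not show. Each is the 250 bases before a RefSeq start (GRCh38.p14), 5′ to 3′ on the strand of the gene. Capitals mark CCAAT or its reverse complement ATTGG, the box bound by NF-Y. They also mark the 8-base E-box TCACGTGG and a 2-part element, ACTAC followed after 3 bases of any kind by TCCC, on either strand. Not shown are SSR4 (wild-type fold 97.2), SEC24B (36.2), TMED5 (33.8) and SEC31A (31.4), by peaks credited to other genes, and TMED9 (21.0). Of these, TMED5 holds the 2-part element, SSR4, SEC24B and SEC31A do not, and TMED9 was not searched. The positions are chr3:156555118-156555367 (minus) for SSR3, chr18:59139634-59139883 (plus) for SEC11C, chr19:18919388-18919637 (minus) for COPE, chr11:74949016-74949265 (plus) for SPCS2, chr1:225777576-225777825 (plus) for SRP9, chr12:54324881-54325130 (plus) for COPZ1 and chr3:128052187-128052436 (plus) for SEC61A1.
SSR3: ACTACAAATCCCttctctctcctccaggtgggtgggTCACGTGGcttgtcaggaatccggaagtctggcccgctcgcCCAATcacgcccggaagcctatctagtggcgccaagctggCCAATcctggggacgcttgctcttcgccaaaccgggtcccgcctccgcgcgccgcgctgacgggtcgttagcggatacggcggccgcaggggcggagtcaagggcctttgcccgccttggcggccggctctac
SEC11C: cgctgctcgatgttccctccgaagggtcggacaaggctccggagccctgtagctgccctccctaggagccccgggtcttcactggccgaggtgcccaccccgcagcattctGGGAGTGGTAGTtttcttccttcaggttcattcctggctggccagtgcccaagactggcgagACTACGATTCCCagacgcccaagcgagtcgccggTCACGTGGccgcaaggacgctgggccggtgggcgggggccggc
COPE: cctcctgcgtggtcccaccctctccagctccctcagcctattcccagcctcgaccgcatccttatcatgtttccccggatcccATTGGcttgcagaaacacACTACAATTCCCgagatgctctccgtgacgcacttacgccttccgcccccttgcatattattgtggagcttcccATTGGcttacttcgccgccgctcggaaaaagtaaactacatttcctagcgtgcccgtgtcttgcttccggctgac
SPCS2: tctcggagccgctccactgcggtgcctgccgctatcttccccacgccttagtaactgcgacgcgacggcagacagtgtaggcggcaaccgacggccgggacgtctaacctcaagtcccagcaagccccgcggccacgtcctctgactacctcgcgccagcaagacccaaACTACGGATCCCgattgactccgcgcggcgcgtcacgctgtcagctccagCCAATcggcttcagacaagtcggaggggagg
SRP9: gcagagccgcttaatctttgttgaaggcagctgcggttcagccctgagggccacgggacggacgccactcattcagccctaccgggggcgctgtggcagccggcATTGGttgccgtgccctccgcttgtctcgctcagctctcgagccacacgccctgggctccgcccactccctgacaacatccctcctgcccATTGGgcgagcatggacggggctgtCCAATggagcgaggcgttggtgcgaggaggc
COPZ1: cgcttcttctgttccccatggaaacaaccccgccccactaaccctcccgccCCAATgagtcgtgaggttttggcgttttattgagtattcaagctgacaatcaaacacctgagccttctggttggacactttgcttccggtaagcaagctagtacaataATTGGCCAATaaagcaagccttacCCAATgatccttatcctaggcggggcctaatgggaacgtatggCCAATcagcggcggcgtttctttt
SEC61A1: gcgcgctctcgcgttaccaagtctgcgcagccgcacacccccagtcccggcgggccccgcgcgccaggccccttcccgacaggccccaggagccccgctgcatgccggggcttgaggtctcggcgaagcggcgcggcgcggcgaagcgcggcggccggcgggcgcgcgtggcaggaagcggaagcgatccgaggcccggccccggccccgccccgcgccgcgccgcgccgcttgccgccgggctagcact

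SSR3 and SEC11C, the genes with the highest credited wild-type folds, both carry the 2-part element and the E-box in these bases. In SSR3 the 2-part element starts at base -250 and the E-box at -214, counted from the start, with CCAAT at -173 and -133. The wild-type summit lay at -113 and the knockdown summit at -147. In SEC11C the 2-part element starts at -139 on the minus strand of the gene and at -77 on the plus strand, and the E-box at -43. Its summits lay at -89 in wild type and -61 in knockdown. COPE has the 2-part element at -149 between ATTGG at -167 and -75, with summits at -120 in wild type and -125 in knockdown. SPCS2 has it at -81 and CCAAT at -31, with summits at -41 in wild type and -82 in knockdown. SRP9 and COPZ1 lack it and hold 3 and 5 NF-Y boxes. SEC61A1 holds none of these elements in its 250 bases, although its credited fold is the third highest in each list. In knockdown SEC11C (14.9) came after SSR3, COPE, SEC61A1 and SRP9 (15.9).

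Elements were counted in windows of 300 bases, from 250 before to 50 after each RefSeq start, which 57 of the 61 members and 15812 protein-coding genes have. A gene counted if any of its listed starts held the element on either strand. CCAAT was found in 26 of 57 members (45.6%) and in 42.1% of all genes. The 2-part element was found in 7 members (12.3%) and in 3.88% of all genes, and the E-box TCACGTGG in 4 (7.02%) and 2.60%. The 7 are SSR2, SSR3, SEC11C, SPCS2, COPE, TMED5 and SEC22B, and of these SSR2 had a wild-type fold of 4.88 and SEC22B no promoter peak. The 4 with the E-box are SSR3, SEC11C, SSR1 and TMED10, with wild-type folds of 102, 65.4, 10.7 and 10.2. Over all genes the E-box share was 3.03% at a wild-type promoter fold of at least 20 and 2.98% between 5 and 20. Without a credited promoter peak it was 1.84%. The element and the E-box were chosen after the member sequences were seen, so their counts among members are descriptions.

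The STAT element TTCNNNGAA, the palindrome that STAT dimers are known to bind, was found in 4 of 57 members (7.02%), namely SPCS3, SEC61G, SEC16A and SRP54, and in 8.97% of all genes. None of these 4 is among the members with a fold of at least 20. Over all genes the share with this element was 7.61% at a wild-type promoter fold of at least 20 and 7.99% between 5 and 20. Without a credited promoter peak it was 10.8%. CCAAT, by contrast, was present in 65.7% of the 1813 genes with a wild-type fold of at least 20. Its share was 36.2% between 5 and 20 and 43.2% without a credited promoter peak. For the 2-part element these shares were 11.6%, 3.28% and 2.28%. Among the members, CCAAT was present in 4 of 6 with a wild-type fold of at least 20 and in 12 of 32 between 5 and 20. A match is a description of the letters, not a binding site.

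**Figure D3:**
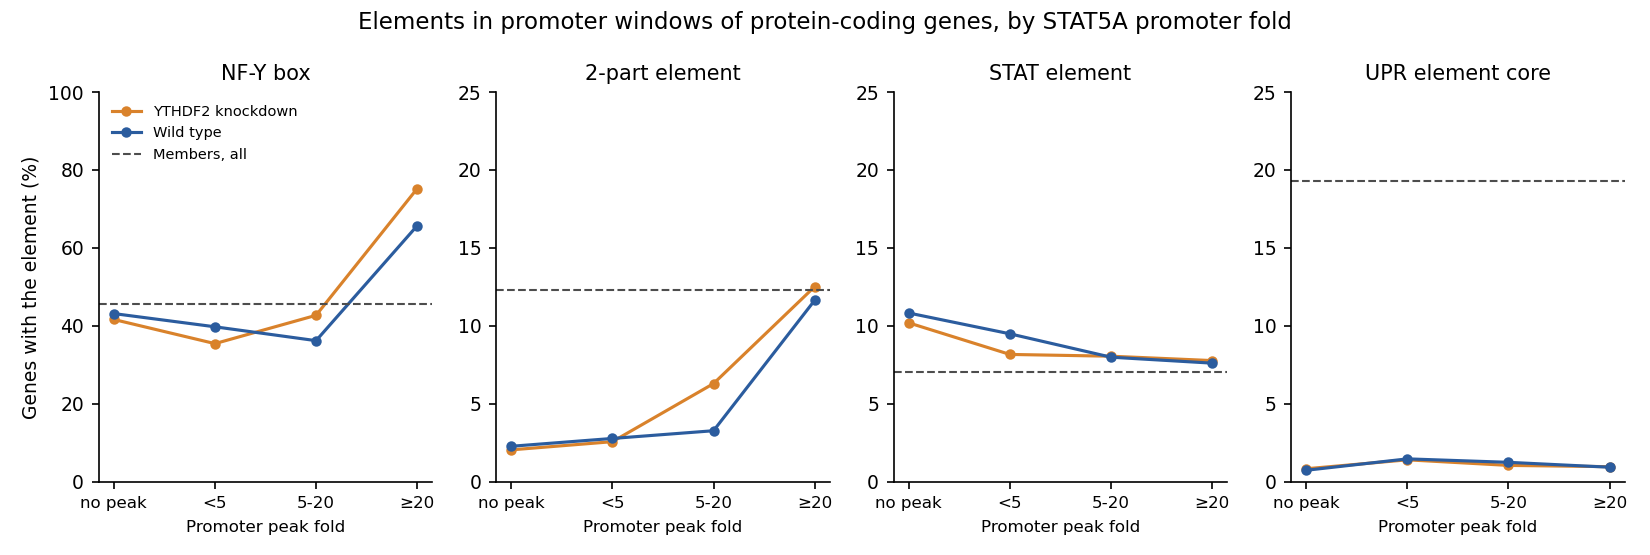
Percentage of protein-coding genes whose promoter windows hold each element (vertical axes, the first with a longer scale), by the fold of the promoter peak in the knockdown (orange) and wild-type (blue) lists; the dashed line is the share over the 57 secretory genes with a window. The NF-Y box and the 2-part element are more frequent in the class of fold 20 or more, the STAT element is not, and the core of the unfolded protein response (UPR) element stands at 19.3% in the secretory genes against 1.05% of all genes.

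TGACGTGG, the core of the unfolded protein response element bound by XBP1 and ATF6, was found in 11 of 57 members (19.3%) and in 1.05% of all genes. The 11 were the COPI genes COPA, COPB1 and COPB2, the COPII genes SEC16A, SEC16B, SEC23A and SEC24A, SEC62, SRP19, SSR3 and SSR4. In SSR3 it lies at a listed start downstream of the one shown above. In SSR4 it lies within the peaks credited to IDH3G (21.6 and 97.2), and in SEC16B at a listed start with no peak within 1 kb in either list. SEC62 has it within 1 kb of the peaks credited to LOC100128164. For COPA, COPB1, COPB2, SEC16A, SEC23A, SEC24A and SRP19 the credited wild-type promoter folds ran from 4.30 to 9.45. Among members with a window the core was found in 1 of 6 with a credited wild-type fold of at least 20. This was SSR3, where the core lies outside the strong peak. The core was found in 6 of 32 members between 5 and 20 and in 3 of 5 under 5. These classes use the credited fold, so SEC16B is among the 6 although its core has no peak within 1 kb. SSR4 is among the 3 although its core lies in the stronger peak credited to IDH3G. Without a credited promoter peak the core was found in 1 of 14 members, SEC62. Over all genes the share with this core was 0.938% at a wild-type fold of at least 20 and 1.25% between 5 and 20. Under 5 it was 1.47%, and without a credited promoter peak 0.742%. The ETS core CCGGAAGT was found in 12 members (21.1%) and 6.98% of all genes. The CREB site TGACGTCA was found in 0 of 57, against 2.998%. The ER stress element, CCAAT followed after 9 bases by CCACG, was also found in 0, against 0.133%.

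Examples of promoters with the UPR core are COPB1 (chr11:14499812-14500061, minus) and SEC24A (chr5:134648535-134648784, plus), again 250 bases before the start with the core or its reverse complement in capitals.
COPB1: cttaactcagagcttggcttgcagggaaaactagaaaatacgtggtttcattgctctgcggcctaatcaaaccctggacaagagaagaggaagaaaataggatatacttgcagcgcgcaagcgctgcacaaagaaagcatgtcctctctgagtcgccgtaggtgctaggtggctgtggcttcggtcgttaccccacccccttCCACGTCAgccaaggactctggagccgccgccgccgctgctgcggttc
SEC24A: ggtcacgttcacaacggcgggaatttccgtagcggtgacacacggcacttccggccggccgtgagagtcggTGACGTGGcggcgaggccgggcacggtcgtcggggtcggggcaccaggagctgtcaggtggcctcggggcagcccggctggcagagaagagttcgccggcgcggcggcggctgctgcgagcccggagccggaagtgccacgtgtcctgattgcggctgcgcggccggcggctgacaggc
The core starts at -48 in COPB1, whose summits lay at 97 in knockdown and 18 in wild type with folds of 3.52 and 9.45. In SEC24A it starts at -179, with summits at -168 in knockdown and -119 in wild type and folds of 3.72 and 6.28.

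Of the 12 COPII genes, the largest group, 9 had a promoter peak in knockdown, with folds from 2.62 to 5.37, and 10 in wild type, with folds from 5.77 to 15.5. SEC24D, a cargo-binding subunit, had the highest credited values (5.37 and 15.5), followed by SEC13 (5.31 and 12.6), part of the outer cage, both above the medians of all genes. SEC16B (4.51 and 11.01), a scaffold of ER exit sites, came next in wild type, and SEC23B (4.54 and 5.77), of the inner coat, came next in knockdown. The only RefSeq start within 1 kb of these SEC16B peaks was that of CRYZL2P-SEC16B. The listed start of SEC16B itself had no peak within 1 kb. SEC31A had 4.46 and 9.16 at its credited start, and a further start lay under a peak credited to THAP9-AS1 with 15.9 and 31.4. SEC24B had no credited peak, but its start lay under the peak of its antisense RNA SEC24B-AS1, with 16.6 in knockdown (chr4:109433280-109434456) and 36.2 in wild type (chr4:109433310-109434450). The 4 SEC24 paralogues thus ranged from that value to SEC24C, which had no peak within 1 kb of its start in either list.

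SEC31B was the remaining gene with a credited promoter peak in wild type only. Its peak of fold 7.72 overlapped a knockdown peak of fold 3.94 credited to NDUFB8. Its second wild-type promoter peak, at its own RefSeq start with a fold of 7.05 (chr10:100519309-100519987), overlapped none. Counted by position, SRP54 and SEC31B were the 2 members with a wild-type peak and no knockdown peak at a listed start.

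Among the COPI genes COPE, for the epsilon subunit, had the highest fold, 28.1 in knockdown (chr19:18919186-18919937) and 35.6 in wild type (chr19:18919130-18919979). The zeta subunit gene COPZ1 followed with 7.77 and 21.2, and COPG2, for a gamma subunit, with 4.19 and 17.8. Its paralogue COPG1 had 2.76 and 6.58. The other large-subunit genes were low, with 3.55 and 4.30 for COPA, 3.52 and 9.45 for COPB1 and 4.02 and 4.60 for COPB2. COPZ2 had no credited promoter peak. Its start lay within 1 kb of peaks credited to MIR152 (5.43 and 16.1), and it was credited with a peak labelled as lying downstream of the gene with a fold of 7.67 in knockdown and 28.7 in wild type (chr17:48023332-48024731). No RefSeq start of the table lay within 1 kb of that peak.

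Both lists held a promoter peak for 6 of the 10 TMED genes. TMED9 (7.88 and 21.0) and TMED2 (6.15 and 14.7), partners in p24 cargo receptor complexes, were highest in knockdown, and TMED1 had 3.61 and 13.3. TMED10 had 5.05 and 10.2, TMED3 had 4.62 and 11.3, and TMED4 had 3.57 and 10.5. TMED5, TMED7 and TMED8 lay under peaks credited to CCDC18 (9.26 and 33.8), TMED7-TICAM2 (3.71 and 8.59) and SAMD15 (2.86 and 10.5). TMED6 had no peak within 1 kb of its start in either list.

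The vesicle fusion gene SEC22A had 4.88 and 14.3. Its relative SEC22C lay under peaks credited to neighbours, the strongest being that of SS18L2 (4.43 and 18.3), and SEC22B had no peak within 1 kb of its listed start. The SEC14-like genes match the symbol rule but encode lipid-binding proteins outside the coats. SEC14L1 (4.63 and 9.61), SEC14L2 (3.79 and 7.05), SEC14L4 (3.92 and 9.18) and SEC14L5 (4.60 and 9.27) were occupied at a promoter in both, and SEC14L3 and SEC14L6 in neither. With SEC24C, TMED6 and SEC22B, these made 5 members without a promoter peak in either list, by credit or by position. SEC16B is not among the 5 because it has a credited peak, although no peak lay within 1 kb of its listed start.

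Counting by position also changed the number of strong peaks. A peak of fold at least 20 lay at the start of 4 members in knockdown (background 6.01% of genes) and 12 in wild type (background 13.1%). The 12 were SSR3, SSR4, SEC11C, SEC61A1, SRP9, SEC24B, COPE, TMED5, SEC31A, SPCS2, COPZ1 and TMED9. As shares of the 61 members these lie near the background in knockdown and above it in wild type, and no test was made. In 5 of the 12 the strong peak was credited to a neighbour.

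Of the 65 knockdown peaks, 58 (89.2%, interval 79.1 to 95.6%) shared 1 bp or more with the wild-type list, beside 77.1% of all knockdown peaks. In the other direction it was 59 of 107 (55.1%, interval 45.2 to 64.8%), beside 40.4%. Promoter peaks made up 49 of the 65 (75.4%) and 60 of the 107 (56.1%), against 49.9% and 38.9% of all peaks. Beyond 3 kb lay 15 of 65 and 37 of 107, against 43% and 51.2%. Among promoter peaks 95.9% in knockdown and 81.7% in wild type overlapped the other list, beside 93.7% and 64.0% of all promoter peaks. Beyond 1 kb it was 11 of 16 in knockdown (68.8%, interval 41.3 to 89.0%), beside 60.7% of all such knockdown peaks, and 10 of 47 in wild type (21.3%, interval 10.7 to 35.7%), beside 25.4%.

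The 48 wild-type peaks without a knockdown counterpart were spread over 25 genes, with 7 at COPE, 6 at SEC16A and 4 at SEC14L1. COPE had 9 credited wild-type peaks and 2 in knockdown, and of the 8 wild-type peaks past its RefSeq start 7 lacked a counterpart. Their summits lay from 5.90 to 20.3 kb downstream of the start with folds from 3.99 to 6.35, far below the peak at the start. SEC16A had 7 wild-type peaks and 1 in knockdown, and SEC14L1 had 7 and 3. SEC61G had 6 and 4. Genes with 6 or more credited peaks made up 8.59% of all protein-coding genes in wild type and 2.57% in knockdown, and these 4 are 4 of the 61 members in wild type. Members with this pattern were therefore not more frequent than the background.

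**Figure D4:**
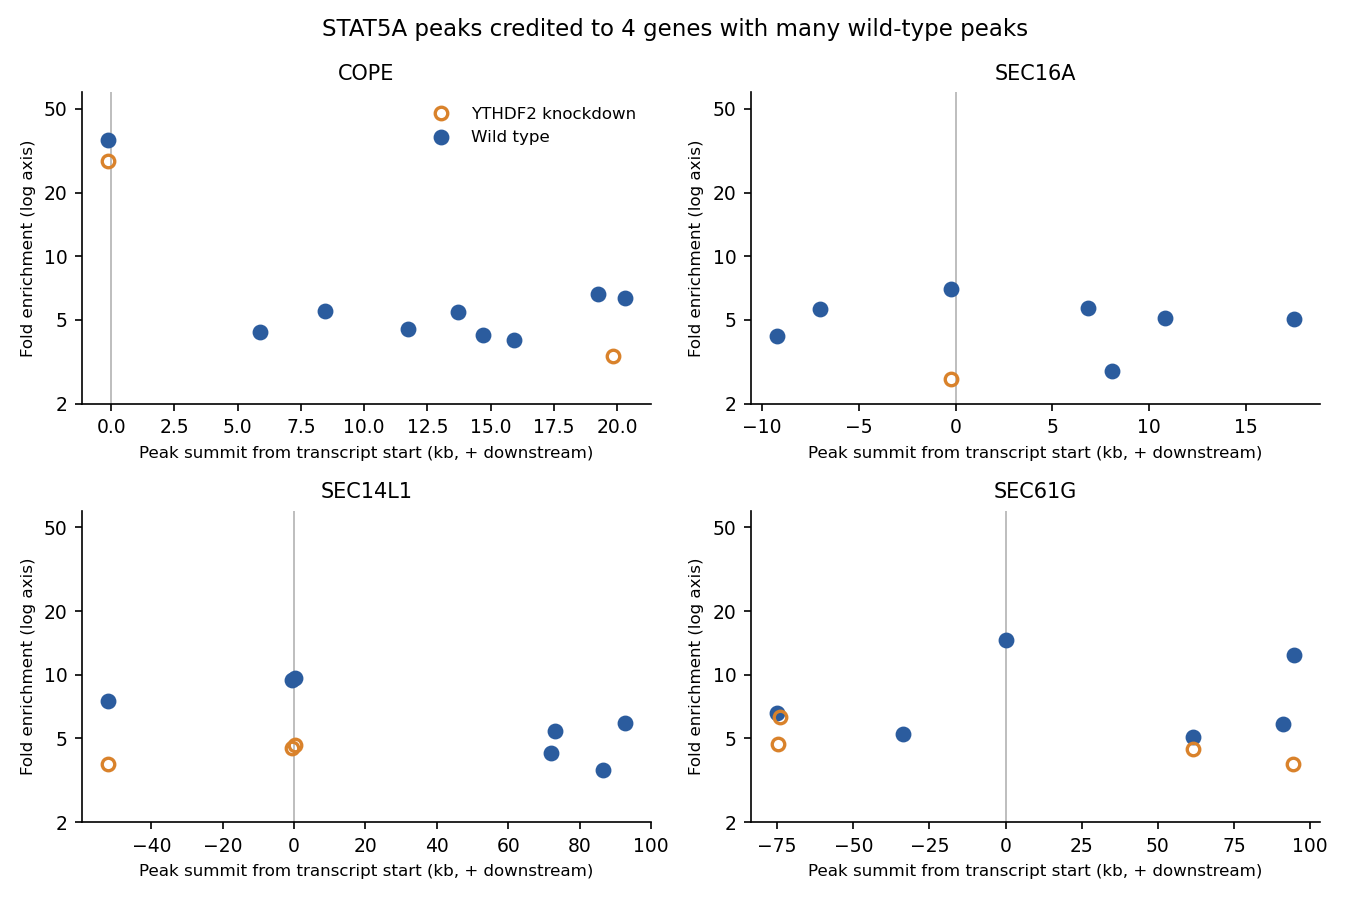
Fold enrichment (log axis) of every peak credited to COPE, SEC16A, SEC14L1 and SEC61G against the distance of its summit from a RefSeq start in kb, with knockdown as open orange and wild type as filled blue circles. The start used is the listed one nearest the summit of the strongest wild-type promoter peak. COPE, SEC16A and SEC14L1 have knockdown circles at this start, and COPE and SEC14L1 a further one away from it. The further one of SEC14L1, at -52.2 kb, lies within 1 kb of another listed SEC14L1 start. SEC61G has knockdown circles only at a distance, because its start peak is credited to another gene. Most wild-type peaks along COPE and SEC16A have no knockdown circle beside them.

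Some peaks far from a start were found in both lists. Around SEC61G knockdown peaks at 94.5 and 61.4 kb downstream (folds 3.78 and 4.44) overlapped wild-type peaks of fold 12.4 and 5.08. Knockdown peaks at -74.0 and -74.7 kb (6.33 and 4.69) lay under 1 wild-type peak of fold 6.61. Upstream of SEC61A1 a peak at -45.8 kb in knockdown (3.51) overlapped one of fold 6.56, while peaks near -61.4 kb in knockdown and -62.1 kb in wild type lay side by side without overlap. Upstream of SSR3 a peak at -51.1 kb was present with 2.82 in knockdown and 6.61 in wild type. An intronic peak credited to SPCS1, 8.47 kb from the nearest authors' start in knockdown, had 5.68 and 4.00. Which gene a distal peak acts on was not measured, and the credit is to the nearest start.

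Genes of the same route that the symbol rule leaves out gave similar counts. Of 40 such genes, 28 were occupied at a promoter in both lists, against 53.6% of all protein-coding genes, and 7 in neither. In knockdown only there was 1 (EMC6, fold 7.90), against 2.42% of all genes. In wild type only there were 4, against 11%, and both of these counts lie near the background. The 4 were MCFD2 (11.4), ARCN1 (14.8), ARFGAP1 (5.78) and USE1 (16.8). ARCN1 encodes the delta subunit of the COPI coat. The median promoter fold of the genes outside the rule was 5.32 in knockdown and 12.7 in wild type, above the 4.51 and 9.45 of the members. Over all protein-coding genes with a promoter peak it was 5.22 and 11.1. ARFGAP2, a regulator of COPI uncoating, had the highest wild-type fold (27.3 in knockdown and 119 in wild type). The cargo lectin LMAN2 (44.97 and 82.1) was highest in knockdown, and next in wild type came MIA3 (9.14 and 24.2), which loads collagen into COPII carriers, and the ER retrieval receptor KDELR2 (5.61 and 20.6).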

How the data were processed

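Per the submitters' processing notes, reads were handled with cutadapt, Trimmomatic, FastQC, Bowtie2 and MACS2 on hg38. The sources used here give no version or setting, nor the tool that credited peaks to genes. The authors deposited 1 peak list per condition, with a fold enrichment (a linear ratio whose denominator is not stated) and a p-value and q-value per peak as the authors gave them. The largest q-value is just under 0.05 in both lists. Positions start at 1. GEO's design line mentions histone marks, but the antibody label names STAT5A, which was followed. Depth is unknown, so intervals (exact Clopper-Pearson, 95%) cover counting error only.

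Genes were matched by identifier to the RefSeq table of GRCh38.p14, and promoter windows were taken from RefSeq on the same build. Peaks overlapped at 1 bp or more. The genes and lists were chosen with earlier results of these data known. Named were the 3 members of highest promoter fold per role, those with a promoter peak in 1 list or none, those with most peaks, and the 4 highest pathway genes outside the rule. Further members were named after their values were seen. Overlap, promoter and element counts were checked on simulated data. Python 3.11.15, numpy 2.4.6, pandas 2.3.3, scipy 1.17.1 and matplotlib 3.10.9 were used. Alternatives were stricter q-values and folds, a 3 kb window, distance from the summit, a shortened wild-type list, other credit rules and a reciprocal overlap. The result for 1 marker gene is not reported here.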

Additional observations from a re-analysis of the deposited data

How the results depend on the processing

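No paired analysis was possible because each condition has 1 peak list, and for the same reason no replicate could be left out. The number of members with a promoter peak depended most on a fold of at least 5. This cut left 14 in knockdown, 14 in both lists and 28 in wild type only, with 19 credited knockdown peaks. Of the wild-type peaks, 24.1% then overlapped knockdown. The reason is that 29 of the 43 knockdown folds lie under 5. At this cut the member share in knockdown lay below that of all genes with a listed start. The number in wild type only was 7 at a q-value under 0.001 and 2 when a peak within 1 kb of a RefSeq start counted whatever its credit. With as many wild-type peaks as knockdown peaks, taken by q-value and then fold, 2 members (COPB2 and SSR4) had a promoter peak in knockdown only, there were 69 wild-type peaks, and 79.7% of them overlapped knockdown. A reciprocal overlap of 50% gave 63.1% of knockdown and 40.2% of wild-type peaks. Of 44 values recomputed, the other 32 stayed within 1.5 times the reported count or inside its interval. Unknown depth limits every comparison of the lists.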
